A study of Mus musculus with 2 samples.

Results

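The resistin family of the mouse has 4 genes, Retn, Retnla, Retnlb and Retnlg, which encode small secreted proteins rich in cysteine (resistin and the resistin-like molecules alpha, beta and gamma). Its expression was compared between granulocytes and monocytes sorted from bone marrow of male C57BL/6 mice of wild-type genotype, with 1 one-colour microarray per cell type and 2 arrays in all. The members were every non-control probe carrying one of these 4 gene names in the scanner files, which gave 6 probes for 4 genes among 41089 probes with values and 19726 named genes. The 2 cell types shared strain, sex and genotype. The age of the mice, their number behind each sample and the surface markers of the sort were not given in the sources used here. With 1 array per cell type no replicate check exists, so no test was made, and each difference describes these 2 arrays.

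Resistin is best known in mice as a hormone of fat cells that impairs the response to insulin. Its relative Retnla is made by macrophages under interleukin 4 (IL-4) and IL-13, which act through the transcription factor STAT6, and Retnlb is made by goblet cells of the gut. Retnlg was found in bone marrow and blood leukocytes and is known as a gene of neutrophils, the main granulocytes of the marrow.

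Every probe of the family is 60 bases long. The genes are close relatives, so the probe sequences bear on how well each signal belongs to 1 gene. Retn was read by a pair of probes that overlap by 22 bases, shown in capitals.
Retn 5′ probe: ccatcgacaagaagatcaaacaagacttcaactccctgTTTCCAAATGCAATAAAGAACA
Retn 3′ probe: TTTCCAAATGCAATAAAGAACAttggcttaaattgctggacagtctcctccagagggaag
In the mouse build mm8, to which the files refer, the 5′ probe spans chr8:3656107-3656928 and the 3′ probe chr8:3656145-3656966. Each of these spans is 822 bases, so the positions skip 762 bases of the genome, as those of a probe across an exon junction do. The probe of Retnlb lies at chr16:48738387-48738446, those of Retnla at chr16:48763950-48764009 and chr16:48763960-48764019, and that of Retnlg at chr16:48793981-48794040. The starts of the Retnlb and Retnlg probes are 55.6 kb apart. No annotation of exons or UTRs in mm8 was used.

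The probes of Retnla and Retnlb were set against that of Retnlg as the 30-base stretches with the most identical bases and no gap. Bases that differ within a pair are in capitals. The Retnla 5′ probe and the Retnlg probe shared 23 of 30 bases.
Retnlg probe, from its base 13: gctttgaAatgaAgaCtAtaacaaaaGcAC
Retnla 5′ probe, from its base 1: gctttgaTatgaTgaAtCtaacaaaaAcTG
The Retnlb and Retnlg probes shared 21 of 30 bases.
Retnlg probe, from its base 3: tgagaaCcTaGCttTGaaatgaAgaCTata
Retnlb probe, from its base 8: tgagaaAcCaATttCAaaatgaTgaGCata
The longest run without a difference was 8 bases between Retnlg and either Retnla probe and 6 bases between Retnlg and Retnlb. Both Retn probes shared at most 18 of 30 bases with any probe of the other genes, and the Retnla pair shared 50 bases with each other. Whether RNA of one member adds to the signal of another member's probe was not tested.

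All 4 genes were brighter in granulocytes. The unit is the processed signal of the scanner software, an intensity with the background subtracted, given with the error of that software's model for the single spot (n = 1 array per cell type). The 75th percentile of the gene spots was 339 on the granulocyte and 621 on the monocyte array, and each signal was divided by it before the arrays were compared. Differences are granulocyte minus monocyte on the log2 scale. Granulocytes and monocytes were sorted as populations, so fewer cells that express a gene and less RNA per cell cannot be told apart.

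Retnlg gave a signal of 102723 ± 10272 on the granulocyte array. On the monocyte array the same probe gave 1374 ± 137. The gene was bright in granulocytes and above the 75th percentile of the array in monocytes too. Its difference was 7.10, which is 137-fold after scaling (95% interval from the spot errors alone, 104 to 180) and 74.8-fold as a plain ratio of signals. Among the 14176 genes above background on both arrays, 23 (0.162%) had a larger difference towards granulocytes. The granulocyte spot was among the 735 so bright that the software took their value from the less sensitive of its scans, and it was not saturated.

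Retn was dim in both cell types and brighter in granulocytes by both of its probes. The 5′ probe gave 92.2 ± 9.45 in granulocytes and 13.9 ± 2.57 in monocytes. Its difference was 3.60, which is 12.2-fold (interval from the spot errors 8.03 to 18.4). The 3′ probe gave 74.8 ± 7.74 and 17.2 ± 2.62, a difference of 2.99 or 7.94-fold (5.54 to 11.4). All 4 values were well above background by the software's flag, and all lay below the 75th percentile of their array. The differences by the pair of probes lay 0.61 apart, against a median gap of 0.28 over the 3644 genes with 2 such probes, of which 74.7% had a smaller gap than Retn. The intervals of the 5′ and 3′ probes overlap. Of the genes measured on both arrays, 289 (2.04%) had a larger difference than the 5′ probe and 482 (3.4%) a larger one than the 3′ probe.

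Retnlb was well above background in granulocytes alone. Its signal was 182 ± 18.3 in granulocytes and 2.66 ± 1.92 in monocytes, where the flag for signal well above background was not set. In raw pixels the granulocyte spot averaged 227 over a local background of 20.0, and the monocyte spot averaged 26.1 over 19.5. Since the monocyte value is only a limit, the difference is given as a lower bound, taken against the lowest signal that counted as well above background on that array (9.46). By this bound Retnlb was at least 35.2-fold higher in granulocytes (log2 5.14). Among the 446 genes with such a bound towards granulocytes, 12 had a larger one. Where bounds are taken against that same limit, their order is that of the granulocyte signal.

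Retnla was dim in granulocytes and at background in monocytes. The 3′ probe gave 23.98 ± 3.20 in granulocytes and 4.01 ± 2.23 in monocytes, and the 5′ probe gave 12.1 ± 2.56 and 2.33 ± 2.32. Both probes were well above background in granulocytes and neither was in monocytes, where the 5′ value was a substitute that the software sets for a spot at background. The bounds were at least 4.64-fold (log2 2.21) by the 3′ probe and at least 2.35-fold (log2 1.23) by the 5′ probe. The bound of the 5′ probe falls short of 4-fold, and as a lower limit it does not show that the difference itself does.

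**Figure D1:**
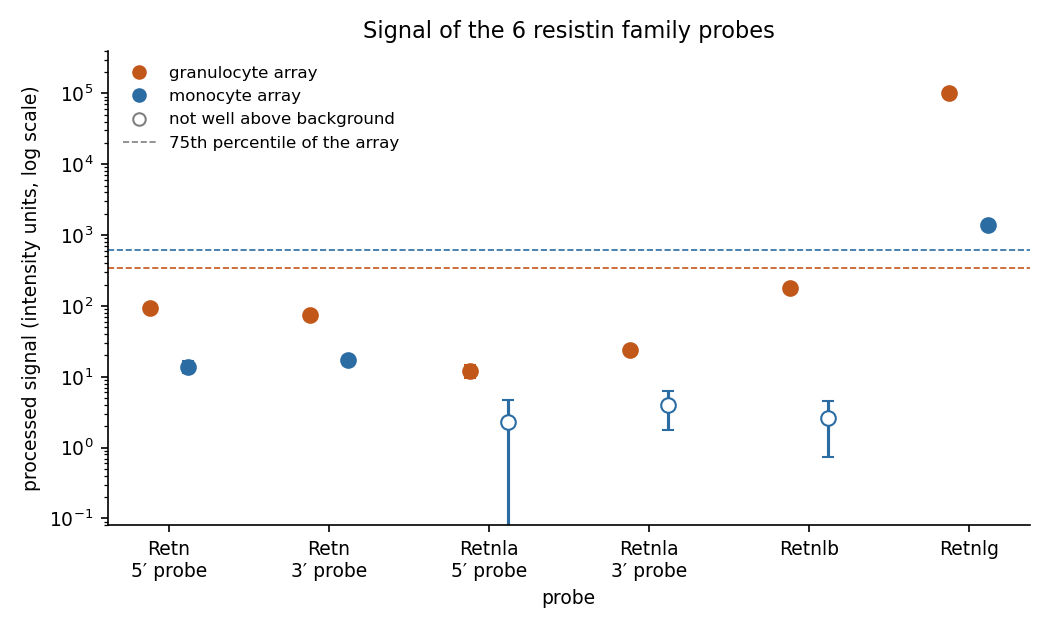
Processed signal (log axis, intensity units) of each resistin family probe on the granulocyte (orange) and monocyte (blue) array, 1 array per cell type. Bars are the scanner software's error of the spot (that of the Retnla 5′ monocyte value, 2.33 ± 2.32, runs below the axis), open circles are values not well above background, and dashed lines are each array's 75th percentile. The granulocyte value is the higher for all 6 probes, and Retnlg alone, at 102723 and 1374, lies above the dashed lines.

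By the rule of size used here, at least 4-fold, 4 of 4 genes were called higher in granulocytes (5 of 6 probes), 2 of them by lower bounds. Over all 15238 genes with a difference or a bound, 8.83% were called in this direction (1346 genes) and 10.8% in the other (1641 genes), while 61% of the genes had a difference above 0 and 39% one below 0. The 4 genes were named as a family and 3 of them are neighbours, so they are not independent draws from the genome. The overall counts moved with the scaling. Without any they were 588 and 3055, and when spike-in controls set the scale they were 816 and 2379. Leaving out the scaling moves every difference by -0.87, so genes named here with a smaller difference above 0 turn their sign. The median of all genes measured on both arrays was 0.47, and a member's difference read against that median is smaller by this amount. Retnlg and Retnlb stayed past 4-fold under all 7 alternative settings. Retn fell short of it after normexp background correction alone (1.73 and 1.53 by its probes). Retnla passed it in 3 of 7 alternatives by its 3′ probe and in 0 of 7 by its 5′ probe.

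**Figure D2:**
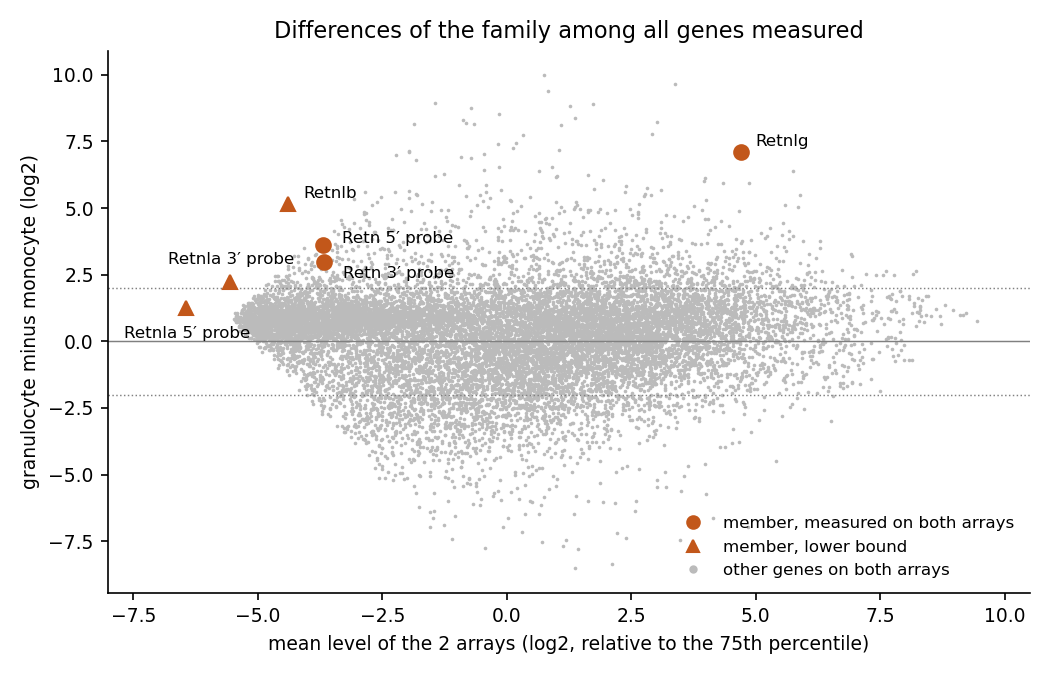
Difference between granulocytes and monocytes (log2, vertical axis) against the mean level of both arrays (log2 relative to the 75th percentile, horizontal axis) for the genes above background on both arrays (grey) and the 6 resistin family probes (orange, triangles for lower bounds). Dotted lines mark 4-fold. Retnlg, at 7.10, lies near the upper edge of the cloud. The 3 probes measured on both arrays lie above 0, and the 3 bounds are kept only where above 0.

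**Figure D3:**
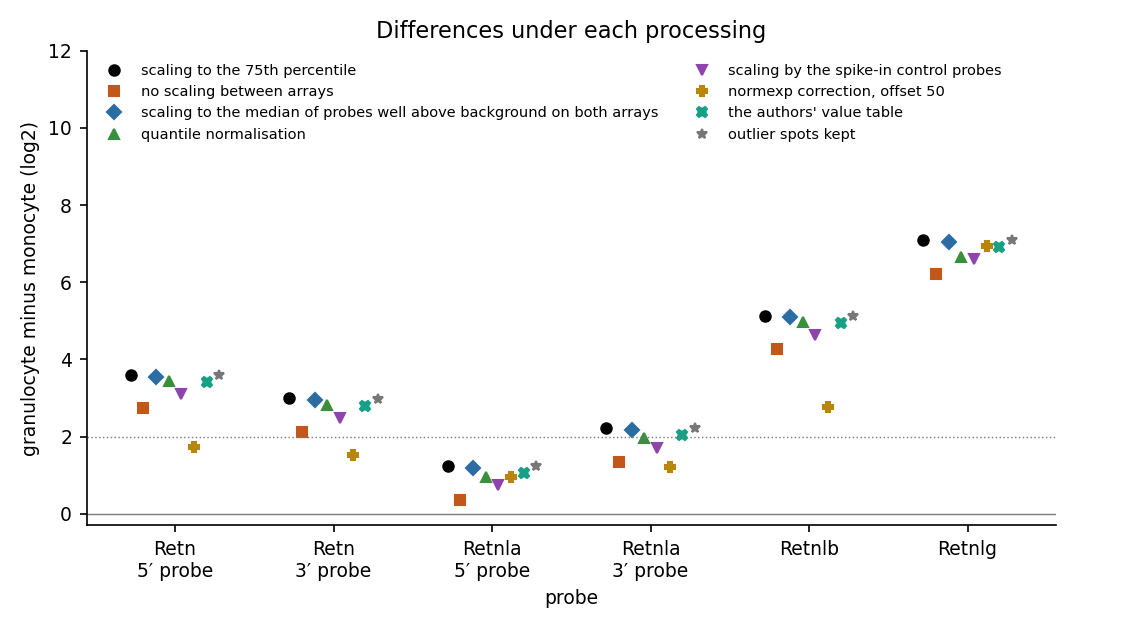
Difference or lower bound (log2) of each resistin family probe under the main scaling (black) and 7 alternatives, with 4-fold as a dotted line. Retnlg stays between 6.22 and 7.10 while normexp correction, which adds 50 to every signal, lowers Retn to 1.73 and 1.53 and Retnlb to 2.78.

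The labels of the arrays were checked against marker genes. All 9 granulocyte markers with values were higher on the granulocyte array (median 2.65), 5 of them at least 4-fold, led by the gelatinase gene Mmp9 (9.65), the chemokine receptor gene Cxcr2 (8.38), the collagenase gene Mmp8 (5.49) and the growth factor receptor gene Csf3r (3.45). All 9 monocyte markers were lower (median -6.63), 8 of them at least 4-fold, led by the fibronectin gene Fn1 (-8.51), the chemokine receptor gene Ccr2 (-7.67), Ms4a6c (-7.46) and the coagulation factor gene F13a1 (-7.46). Sums over a list, here and below, are of signals before the division by the 75th percentile. The granulocyte list summed to 1315870 on the granulocyte and to 619027 on the monocyte array, where its members were uneven. The calprotectin genes S100a9 (257392) and S100a8 (118703) and the granule protein genes Camp (81956), Ngp (77120) and Ltf (73529) were bright in monocytes. Mmp9 (227) and Cxcr2 (88.3) lay there below the 75th percentile of 621. Whether granulocytes among the sorted monocytes add to the monocyte signal of Retnlg was not tested.

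The genes whose difference lay nearest to that of Retnlg were the keratin-associated Krtap21-1 (7.09), the hyaluronan receptor gene Lyve1 (7.13), the GABA receptor gene Gabbr1 (7.04), the small GTPase gene Rhoc (7.19) and the myosin light chain gene Myl2 (6.99). Those nearest to the Retn 5′ probe were the T-box factor gene Tbx6 (3.60), the chromatin organiser gene Satb1 (3.59), the tight junction gene Cldn1 (3.59), Phf1 (3.58) and Cdk5r1 (3.63). Likeness here is the gap between log2 differences over 2 arrays, among 7804 genes that reached the 75th percentile on at least the brighter array. So short a profile gives many near matches. In monocytes Krtap21-1 (13.7), Lyve1 (13.4) and Myl2 (11.8) lay near 9.46, the lowest signal counted as well above background. Gabbr1 gave 39.1 and Rhoc 106 there, against 1374 for Retnlg.

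Retnlb, Retnla and Retnlg follow each other on chromosome 16 in this order, and all 3 were brighter in granulocytes. Of the 10 nearest other protein-coding genes (5 each side, in the order of the RefSeq assembly GRCm38.p6), 5 had values and 0 of them reached 4-fold. Over all genes 8.83% did so towards granulocytes and 10.8% towards monocytes, so 0 of so few genes is near those shares. They ran from Cip2a, which encodes an inhibitor of a phosphatase (-1.42), to Dzip3, which encodes a ubiquitin ligase (0.64). Directly beside the cluster, the T-cell adaptor gene Trat1 gave 0.24 with signals of 29.1 in granulocytes and 45.0 in monocytes. Dppa4 and Morc1 were not well above background on either array.

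Retn lies apart from the others, on chromosome 8. All 9 of the neighbours with values were above 0 and 3 of them reached 4-fold, against 61% and 8.83% over all genes. For Fcer2a the value is a bound (0.95), kept only where above 0, with a granulocyte signal of 11.1 near the limit of 9.46. Trappc5 (0.16), Clec4g (0.41) and Xab2 (0.57) turn below 0 without scaling. Mcemp1, the next gene, encodes a membrane protein of mast cells and other myeloid cells. It gave 125526 in granulocytes and 25146 in monocytes, a difference of 3.19. On the other side of Retn, Camsap3, which encodes a protein of microtubule ends, gave 335 and 76.2 (3.01). Pet100, which encodes an assembly factor of cytochrome c oxidase, lies on that side too and gave 5899 and 2562 (2.07). The secretion gene Stxbp2, directly beside Retn there, gave 1.73.

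**Figure D4:**
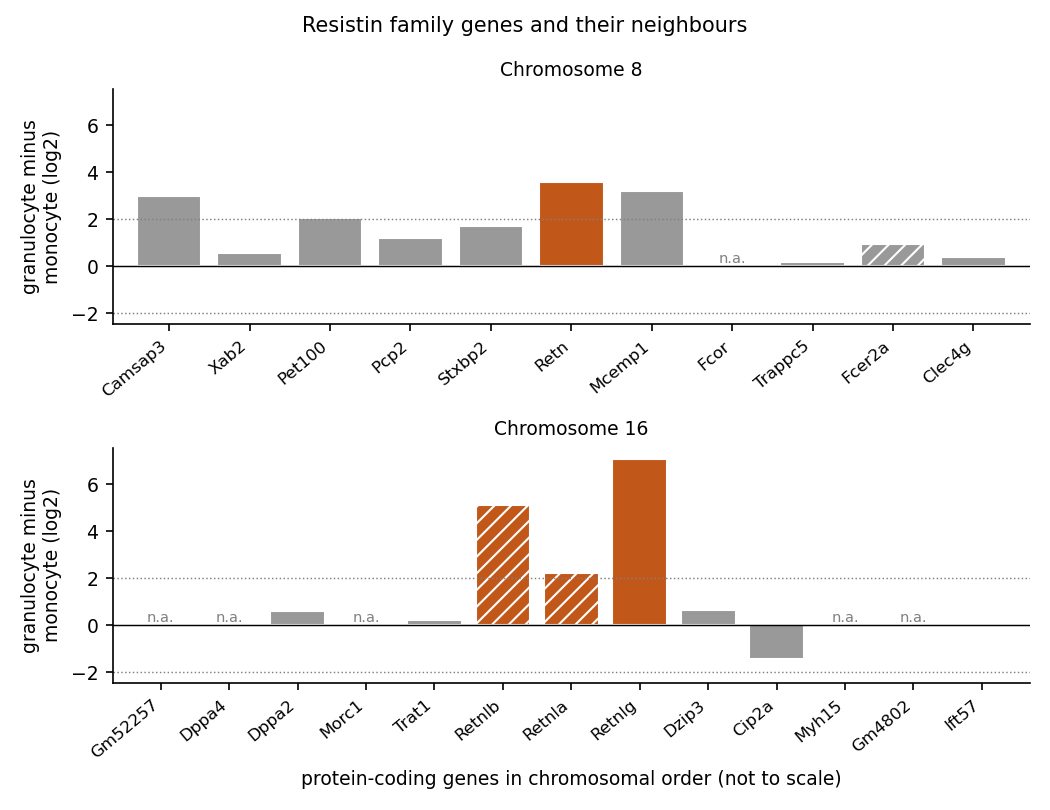
Difference between granulocytes and monocytes (log2) for the resistin family genes (orange) and the 5 protein-coding genes on each side (grey), in chromosomal order and not to scale. Hatched bars are lower bounds, n.a. marks genes without a value, and dotted lines mark 4-fold. On chromosome 16 the family genes stand above neighbours that reach at most 0.64, while on chromosome 8 Retn (3.60) has Mcemp1 (3.19) beside it.

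Promoter sequences bear on the pair Retnla and Retnlg, which lie side by side and were both brighter in granulocytes. The Retnla bounds were at least 4.64-fold by the 3′ probe and at least 2.35-fold by the 5′ probe, and Retnlg was 137-fold higher. The table of RefSeq promoters used here (GRCm38.p6) matched 3 of the 4 genes, Retn, Retnla and Retnlg. The 250 bases before each annotated start were searched on both strands for a palindrome of the kind STAT6 is known to bind (TTC, any 4 bases, then GAA) and for TTGCNNAA, a form of the site of C/EBP factors, which drive myeloid genes. Matches are in capitals. The Retnla sequence is the plus strand of chr16:48842359-48842608 and the Retnlg sequence that of chr16:48872358-48872607.
Retnla promoter: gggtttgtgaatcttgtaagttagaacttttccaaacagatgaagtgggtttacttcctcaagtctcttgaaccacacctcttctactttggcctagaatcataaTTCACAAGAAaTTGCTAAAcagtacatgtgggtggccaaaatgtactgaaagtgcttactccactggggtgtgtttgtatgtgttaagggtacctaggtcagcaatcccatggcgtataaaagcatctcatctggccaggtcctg
Retnlg promoter: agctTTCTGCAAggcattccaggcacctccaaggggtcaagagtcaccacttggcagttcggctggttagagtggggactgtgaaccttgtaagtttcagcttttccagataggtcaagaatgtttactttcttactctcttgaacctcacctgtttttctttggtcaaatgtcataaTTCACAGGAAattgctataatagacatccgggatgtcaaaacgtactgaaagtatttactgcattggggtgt
The pair was aligned with gaps allowed and with overhanging ends at no cost and not counted. It was identical at 135 of 176 paired bases (76.7%), with a longest shared run of 12 bases. The alignment of Retn, counted over paired bases in the same way, gave 57.0% with Retnla and 53.8% with Retnlg. Retnla and Retnlg each held 1 match to the STAT6-type palindrome, a motif in 5.85% of 32851 mouse promoter windows of this length. It began 145 bases before the start of Retnla and 72 bases before that of Retnlg, a gap of 73 bases. The bases on both sides of the palindrome are alike in the pair. The gap thus lies in where the annotated starts fall along the shared sequence. Retnla and Retnlg also held 1 match each to TTGCNNAA (9.56% of windows), 134 bases before the start in Retnla and 246 in Retnlg. The TATA box TATAAA, in 12.4% of windows, was found in the Retnla window alone, 30 bases before the start. The Retnlg window ends before the stretch that would match this part of Retnla, so that stretch of Retnlg was not searched. CCAAT (33.8% of windows) was found in Retnlg and GAGGAA, a core of sites of the factor PU.1 (23.3%), in Retnla. Retn held 0 matches to these 5 motifs. A match describes letters in this window and shows no binding.

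Resistin is known to act on cells through the endotoxin receptor Tlr4 and the adenylyl cyclase-associated protein Cap1. Of 8 genes for such receptors and their partners, 6 had values and 0 reached 4-fold in either direction. Over all genes 8.83% did so towards granulocytes and 10.8% towards monocytes, so 0 of 6 is near those shares. The median was 1.06 (0.19 without scaling) against 0.46 over all 15238 genes. Tlr4 gave 968 in granulocytes and 441 in monocytes (1.94), Cap1 3200 and 1740 (1.75), and the adaptor gene Myd88 13731 and 10351 (1.28). Ly96, whose product binds endotoxin beside Tlr4, gave 0.83, and the co-receptor gene Cd14 gave -0.54. Ly96 falls just below 0 without scaling. Ror1 and Dcn, whose products are described as resistin receptors of the fat lineage, were not well above background on either array.

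Genes of the IL-4 and IL-13 pathway, the known inducers of Retnla, were present in both cell types. Of 11 genes 10 had values. Towards granulocytes 1 gene reached 4-fold (8.83% over all genes) and towards monocytes 0 (10.8%), and the median was 0.80 (-0.071 without scaling). The kinase gene Jak1 gave 2.06, the receptor gene Il4ra 1.77 with signals of 7664 and 4122, and Stat6 1.35 with signals of 5712 and 4108. The kinase gene Tyk2 went the other way (-1.57). The cytokine genes were dim, Il4 at 15.2 in granulocytes and 24.6 in monocytes and Il13 at 64.1 and 63.3.

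Other genes of alternatively activated macrophages, among which Retnla is counted, were split between the cell types. Of 12 listed, 8 had values, of which 1 reached 4-fold towards granulocytes (8.83% over all genes) and 4 did so towards monocytes (10.8%). Their median of -0.87 turned to 0.22 under normexp and to 0.51 when bounds were left out. The lectin genes Clec10a (-6.15), Mgl2 (-2.72) and Mrc1 (-2.79) were higher in monocytes. The chemokine gene Ccl24 was at least 4.77-fold higher there by one probe, while the bound by its other probe was -1.13, which does not reach 4-fold. The transglutaminase gene Tgm2 (4.60, with its other probes at 2.62 and 2.73) and the lipoxygenase gene Alox15 (1.43) were higher in granulocytes. The chitinase-like gene Chil3 was bright in both, at 161748 and 151004 (0.97). The arginase gene Arg1 was not well above background on either array.

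Of 12 transcription factor genes known to act on resistin genes or in granulocyte formation, 11 had values. Here 1 gene reached 4-fold towards granulocytes (8.83% over all genes) and 0 towards monocytes (10.8%), and the median was 0.77 (-0.11 without scaling). Cebpd (2.07), Spi1, which encodes PU.1 (1.96), and Stat6 (1.35) had the largest differences towards granulocytes. Cebpa, which activates Retn in fat cells, was lower in granulocytes (-1.68, and -1.81 by its other probe). Pparg, the fat cell regulator, gave 116 in granulocytes and 374 in monocytes (-0.82), and its partner Rxra gave -1.05 by one probe and 0.71 by the other. Cebpe was not analysed here.

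**Figure D5:**
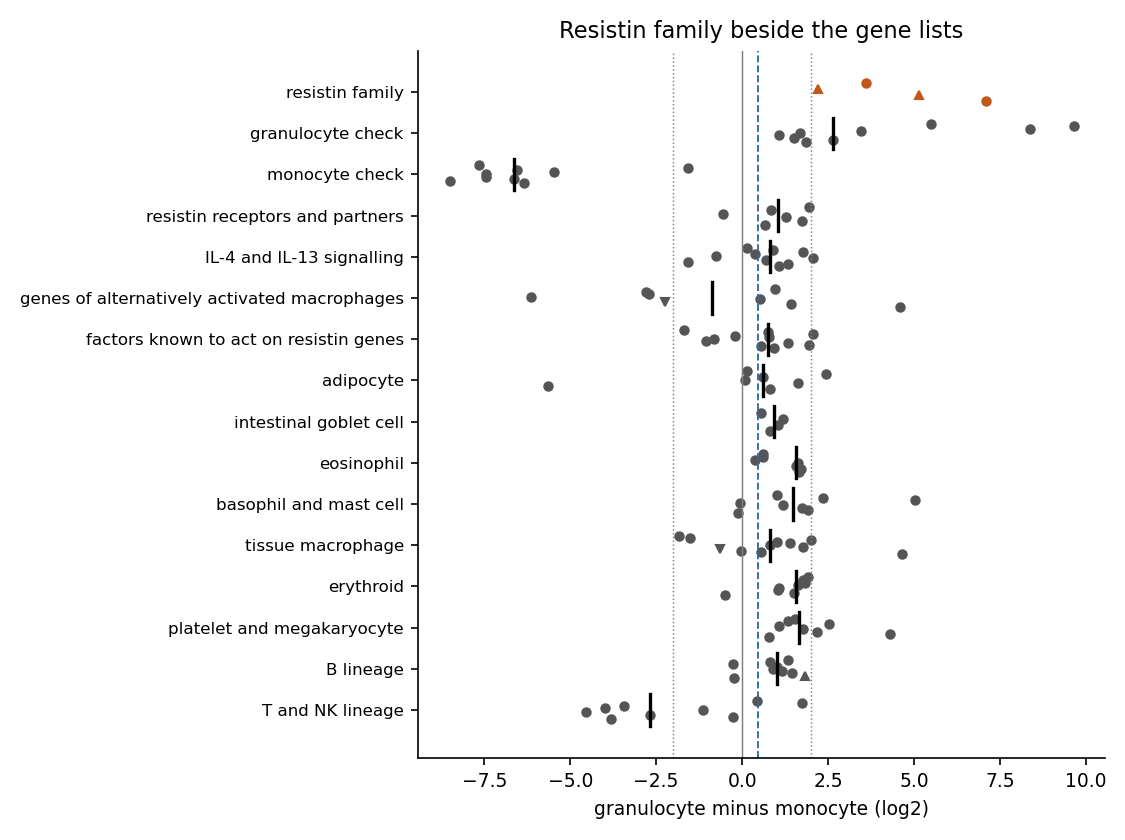
Difference between granulocytes and monocytes (log2) of the 4 resistin family genes (orange) and of the members of each gene list (grey dots; triangles pointing up or down are bounds towards granulocytes or monocytes), with each list's median as a black bar. The dashed blue line is the median of all genes (0.46) and dotted lines mark 4-fold. The family's values run from 2.21, the lower bound of Retnla by its brighter probe, to 7.10 for Retnlg. They lie to the right of the medians of the pathway lists. The granulocyte marker median (2.65) lies to the right of the Retnla bound. The other Retnla probe, with a bound of 1.23, is not shown.

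Markers of the cells best known for Retn and Retnlb, fat cells and goblet cells, were in part at background. Of 11 fat cell genes on the array, the leptin gene Lep was not well above background on either, and the adiponectin gene Adipoq was not on the granulocyte array (5.29, against 9.68 in monocytes). The 7 fat cell genes with values had a median of 0.60 (-0.25 without scaling). Plin4 (2.43) and the lipase gene Lipe (1.63) were higher in granulocytes. The lipoprotein lipase gene Lpl was higher in monocytes (-5.64). The list summed to a signal of 1186 in granulocytes and 3666 in monocytes, an order that rests on Lpl, since the other 10 genes summed to 1154 and 783. Of 10 goblet cell genes 6 were not well above background on either array, among them Tff3, Agr2 and Cdx2. The mucin gene Muc2 gave 33.2 in granulocytes and 41.8 in monocytes. The 4 genes with values had a median of 0.92, with Fcgbp the highest at 1.20. Of these, 0 reached 4-fold, near the shares over all genes (8.83% towards granulocytes and 10.8% towards monocytes). The goblet cell list summed to 177 in granulocytes and 170 in monocytes, and to 129 and 132 without Fcgbp.

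Markers of other marrow cells differed too, and their part in the family's differences was not tested. Over all genes 61% were above 0, 8.83% reached 4-fold towards granulocytes and 10.8% did so towards monocytes. Eosinophil genes, markers of another granulocyte type, had a median of 1.57 with 7 of 7 above 0 (Epx at 0.38, Prg3 at 0.60 and Prg2 at 0.62 turn below 0 without scaling) and 0 at 4-fold, led by Ear1 (1.72) and Ear6 (1.66), and summed to 10322 in granulocytes and 7758 in monocytes. Basophil and mast cell genes had a median of 1.48 with 2 of 8 at 4-fold, the histidine decarboxylase gene Hdc (5.03) and Cpa3 (2.35). They summed to 113616 and 9095, of which Hdc alone gave 111367 and 6250, and the other 7 genes summed to 2250 and 2845. Tissue macrophage genes had a median of 0.80 (-0.071 without scaling) and summed to 28618 and 24307, with the iron exporter gene Slc40a1 at 4.65, Adgre1 at -1.84 and the adhesion gene Vcam1 at -1.52. Without Slc40a1 the tissue macrophage sums were 7493 and 22771. The erythroid median was 1.56 (summed signals 116082 and 60227), the platelet and megakaryocyte median 1.67 (11672 and 4525) and the B-lineage median 1.02 (16421 and 34146). The T and NK median was -2.69 (1977 and 8144), with the T-cell receptor chain gene Cd3d against it at 1.76 (1533 and 830).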

How the data were processed

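Per the file headers, spot intensities were extracted with Agilent Feature Extraction 10.5.1.1 from arrays of build mm8 probes, background-subtracted and detrended but not normalised between arrays. The software's p-value for a spot against background, in the deposited files, was not used beyond its flags. The authors' deposited log2 table differed from the log2 signals used here by a constant for each array (-0.24 and -0.92), within 0.01 for 100.0% of probes, by a rule not given in the sources used here. Per the labels, 0.5 µg of total RNA was amplified and labelled with Cy3.

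Control spots were left out, as were outlier spots (143 for granulocytes, 103 for monocytes). No spot was saturated. Signals were divided by the 75th percentile of the array and put on the log2 scale. Well above background were 63.9% of probes in granulocytes and 68.2% in monocytes. A gene was represented by the probe above background on most arrays, then the brightest, and named through RefSeq accessions of GRCm38.p6 (24049 probes), current symbols (6219) or older ones (2378), while 410 probes listed several genes. The intervals use the 95% level and the spot errors, and cover neither mice nor sorts. The 2 arrays limit the precision.

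The members and gene lists were chosen with earlier results of these data known. The rule for names allowed all members, up to 4 genes per list with the largest differences, those at 2-fold against the sign of their list's median, 5 neighbours each side and 5 nearest differences per member; a few further genes, whose values were seen first, are Il4, Il13, Cd14, Pparg, Chil3, Ccl24, Arg1, the eosinophil genes Epx, Prg2 and Prg3, the granule genes of neutrophils and markers at background. Sums without a list's brightest gene were added after seeing the data. The steps were tested on simulated data. There each probe had the same background flag on both arrays, so the step of lower bounds was not tested. Alternatives were other scalings, normexp correction with limma 3.58.1 (offset 50), the authors' table, outlier spots kept, other filters and the mean over probes. Scripts ran in Python 3.11.15 and R 4.3.3, with alignments from Biopython 1.88.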

Additional observations from a re-analysis of the deposited data

How the results depend on the processing

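With 1 array per cell type no replicate could be left out, and the alternatives say nothing of the spread between mice. In all 7 alternatives the 3 probes measured on both arrays, those of Retn and Retnlg, stayed above 0. The other 3 probes, of Retnla and Retnlb, have bounds. A bound is kept only where it is above 0, so its sign could not turn. Scalings that add 1 constant and the authors' table could not turn the larger differences, since the largest shift, without scaling, was -0.87. Without scaling the values were 6.22 for Retnlg, 2.73 for the Retn 5′ probe and 1.34 for the Retnla 3′ bound. With spike-in scaling, from 8 control probes, Retnlg was 6.60 and Retn 3.11, and with quantile normalisation Retnlg was 6.66. After normexp correction Retn was 1.73, the Retnla bound 1.20 and the Retnlb bound 2.78, while Retnlg was 6.93. The offset of 50 exceeds the monocyte signals of Retn, Retnla and Retnlb, and adding it to both arrays shrinks their differences. Counts of genes at 4-fold were 588 towards granulocytes and 3055 towards monocytes without scaling, 816 towards granulocytes with spike-in scaling, and 877 and 909 after normexp correction. The other 11 counts stayed within 1.5 times. Of 60 list medians recomputed, 6 changed sign. Without scaling these were IL-4 and IL-13 signalling (-0.071), factors acting on resistin genes (-0.11), fat cells (-0.25) and tissue macrophages (-0.071). Alternatively activated macrophages gave 0.22 under normexp and 0.51 when bounds were left out. Signals near 9.46, the lowest counted as above background, limit what Retnla and Retnlb show in monocytes.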
